A study of Mus musculus with 8 samples.

Results

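Livers of wild-type mice given both SLIT2 and acetaminophen (APAP) were compared with livers of mice given neither, across all genes counted. The comparison uses 4 of the study's 8 RNA-seq libraries, 2 labelled SLIT2+APAP here and 2 control, chosen by their labels alone. Control mice received PBS. SLIT2+APAP mice received SLIT2 at 2 µg per mouse into the peritoneum for 3 days and APAP at 400 mg/kg, and were killed 24 h after APAP; the labels call the genotype of all groups WT. The other 4 libraries were 2 from mice given SLIT2 alone and 2 from mice given PBS and APAP. They entered the shared estimate of the spread, and their values stand beside many of the results. The labels give no strain, sex or age, and leave unsaid whether a group's 2 libraries are 2 mice. The p-values therefore rest on a spread that may be technical.

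APAP is turned by cytochrome P450 enzymes, chiefly Cyp2e1, into a reactive quinone imine that binds glutathione and then proteins, above all mitochondrial ones, in the hepatocytes around the central vein. Early genes, the unfolded protein response, glutathione enzymes and the acute phase response are known to react to the injury. SLIT2 is a secreted ligand of the ROBO receptors, known for guiding axons and for restraining leukocyte migration. Fewer cells of a type and less RNA per cell cannot be told apart in bulk tissue.

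Total counts were 97.96 ± 3.59 M in control and 78.71 ± 7.04 M in SLIT2+APAP (mean ± SD, n = 2; 1 M is 1000000 counts). The 13 mitochondrially encoded genes took 16.65% ± 0.919 of all counts in control and 27.7% ± 3.68 in SLIT2+APAP, against 14.15% ± 1.06 with APAP and 64.6% ± 6.22 with SLIT2 alone. Outside these genes, pseudogenes took 0.472% ± 0.0481 of the counts in control, 0.739% ± 0.0792 in SLIT2+APAP and 1.51% ± 0.141 with SLIT2 alone. The part of these differences in the results below was not tested. Within control and within SLIT2+APAP, the median gap per gene was 0.215 and 0.219 on the log2 scale, against 0.36 within SLIT2 and 0.601 within APAP. Levels are given below as CPM, that is per 1000000 TMM-scaled counts, and are not comparable between genes.

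Of 16876 genes tested, 365 (2.16%) differed between SLIT2+APAP and control at an adjusted p under 0.05 in edgeR's quasi-likelihood test. Of these, 121 rose (0.717% of all tested) and 244 fell (1.45%). The libraries of the 2 groups did not overlap for 11389 genes (67.5%), 5935 of them higher (35.2%) and 5454 lower (32.3%). The median log2 fold change over all genes was 0.0375, and 52.54% of genes had a positive one. The genes that rose had a median of 1.09 CPM in control and 4.68 CPM in SLIT2+APAP. Those that fell had a median of 34.3 CPM in control and 9.98 CPM in SLIT2+APAP. With SLIT2 alone the medians of the same genes were 19 CPM and 4.67 CPM, and with APAP alone 1.04 CPM and 29.8 CPM. Against control, APAP alone called 56 genes higher (0.332%) and 77 lower (0.456%), and SLIT2 alone 4601 higher (27.3%) and 4665 lower (27.6%). Against APAP, SLIT2+APAP called 1061 higher (6.29%) and 1290 lower (7.64%). These comparisons share libraries, so their values are set side by side only.

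The number of calls depended on which libraries were in the fit. With only the 4 libraries compared it was 4246, with 315 of the 365 among them, and without the 2 SLIT2 libraries it was 3. Leaving out the APAP library numbered 3 or 4 gave 2558 or 2456 calls, and leaving out 1 SLIT2 library gave 3. It was 19 or 150 without the first or second control library, and 4 or 2 without the first or second SLIT2+APAP library. The direction of each of the 84 named genes called here held in all these fits, but 0 of the 84 passed without the SLIT2 libraries or without any 1 SLIT2 or SLIT2+APAP library. The SLIT2+APAP and control libraries of these 84 genes did not overlap, so leaving out libraries could hardly turn a direction. Scaling to library totals moved the median of all genes to 0.338 and turned the balance, with 267 genes higher and 123 lower (68.5% higher, against 33.2% with TMM). Of the 84 named calls, 29 were lost with library totals: Acaa2, C8b, Cct5, Cops3, Cops4, Cth, Cyp2c70, Ehhadh, Fads2, Gstk1, Hspa5, Hsph1, Igfbp2, Mdh1, Mrpl11, Mrpl20, Mup21, Mup7, Ndufv1, Paqr9, Psma5, Psmd14, Rpl3, Rpl4, Slco1a1, Srd5a1, Sucla2, Susd4 and Ugt1a6a. Changes below are relative to TMM scaling.

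**Figure D1:**
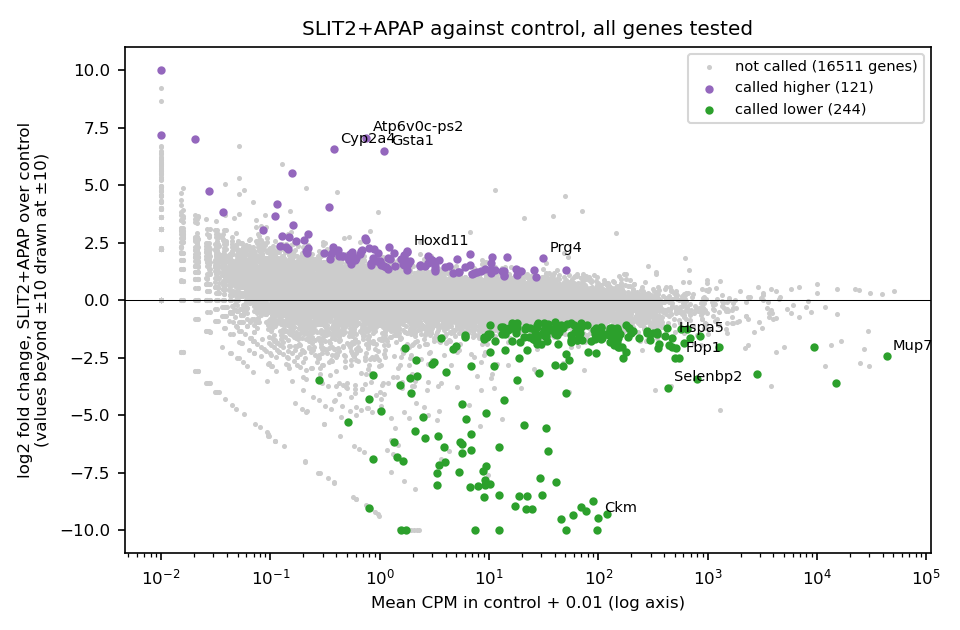
log2 fold change of SLIT2+APAP over control (vertical axis, drawn at most at ±10) against the mean CPM in control plus 0.01 (log axis) for 16876 genes, with the 121 genes called higher in purple and the 244 called lower in green. Called rises lie mostly at low control levels, and called falls mostly above 10 CPM, with a separate group of muscle genes at the bottom.

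For 11 genes the change was about as large with APAP alone, and for most of them with SLIT2 alone too. They were chosen after their values were seen, as called genes with an informative symbol, no overlap with control and at least 20 CPM in the higher group whose change with APAP alone was 0.8 or more of that with both and whose 2 control libraries differed less than 3-fold, which leaves out the muscle genes described further on. Gsta1, a glutathione S-transferase that conjugates electrophiles (ENSMUSG00000074183, GRCm38 chr9:78230656-78242684), stood at 0.81 and 1.38 CPM in control and at 72.7 and 123 CPM in SLIT2+APAP. APAP libraries held 155 and 54.9 CPM and SLIT2 libraries 6 and 1.38 CPM, so only the groups given APAP were high. Gsta1 rose by a log2 fold change of 6.48 ± 0.87 (SE; adjusted p = 0.0253). Its near-identical neighbour Gsta2 was at 9.83 and 15.1 CPM in control and 9.25 and 12.8 CPM in SLIT2+APAP, and how reads that fit both were counted is not given in the sources used here.

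Prg4, which encodes the secreted lubricant protein lubricin, rose from 33.1 and 29.2 CPM to 114 and 108 CPM (1.84 ± 0.29, adjusted p = 0.0311), with 106 and 82.6 CPM under APAP and 13.7 and 8.09 CPM with SLIT2, below control. Adora1, the adenosine A1 receptor, rose from 6.88 and 9.99 CPM to 21.2 and 19.6 CPM (1.27 ± 0.25, adjusted p = 0.0487), with 16.6 and 12.8 CPM under SLIT2. Both had non-overlapping groups. Nudt7, a peroxisomal hydrolase of coenzyme A, fell from 537 and 402 CPM to 123 and 105 CPM (-2.04 ± 0.26, adjusted p = 0.0253), beside 117 and 110 CPM with APAP and 243 and 189 CPM with SLIT2. Slco1a1, an organic anion transporter of the basolateral membrane, fell from 326 and 266 CPM to 86.3 and 93.7 CPM (-1.72 ± 0.24, adjusted p = 0.0283), beside 116 and 109 CPM with APAP and 128 and 93.2 CPM with SLIT2. The steroid enzymes Hsd3b5 and Srd5a1 fell by 2.53 ± 0.41 (adjusted p = 0.0323) and by 1.65 ± 0.27 (adjusted p = 0.0344) on the log2 scale. With SLIT2 alone they differed from control by -2.99 and -2.66, and with APAP alone by -2.31 and -1.49. Cth, which makes cysteine from cystathionine and so feeds glutathione synthesis, fell from 280 and 348 CPM to 140 and 93.1 CPM (-1.43 ± 0.27, adjusted p = 0.0429), beside 133 and 136 CPM with APAP and 48.1 and 38.3 CPM with SLIT2. The remaining members, Mup21, Paqr9 and Cmip, differed from control by -3.81, -3.67 and 1.91 with SLIT2 alone and by -1.12, -1.33 and 1.12 with APAP alone. The rule fixed that SLIT2+APAP lay near APAP for all 11, so their difference from APAP is a description only.

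**Figure D2:**
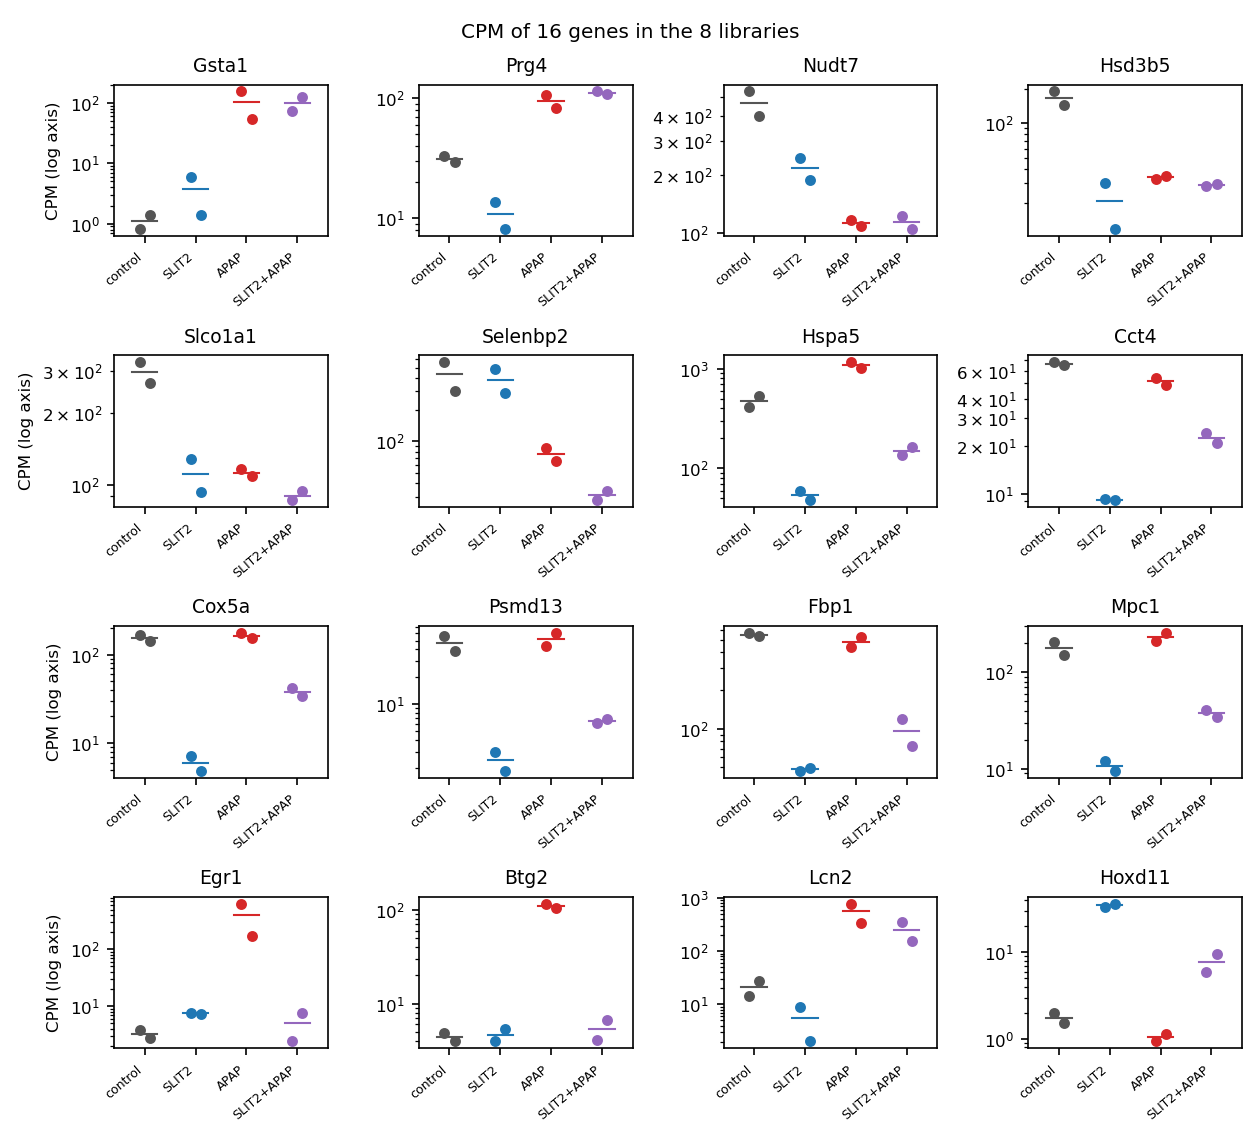
CPM (log axis, scaled per gene) of 16 genes in the 2 libraries of each group, with bars at the group mean. Gsta1, Prg4, Nudt7, Hsd3b5 and Slco1a1 lie at like levels in APAP and SLIT2+APAP; Cct4, Cox5a, Psmd13, Fbp1, Mpc1 and Hoxd11 lie between control and SLIT2 in SLIT2+APAP; Egr1 and Btg2 are high in APAP only.

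Acute phase proteins are plasma proteins that hepatocytes make under inflammatory cytokines. None of the 24 tested passed, 18 of 24 had a positive log2 fold change, and the list median was 0.405 against 0.0375 over all genes. Against control that median was 1.16 with APAP alone and -2.07 with SLIT2 alone. Saa2, a serum amyloid A, was at 45.2 and 53.9 CPM in control and at 1828 and 424 CPM in SLIT2+APAP, with 1718 and 3510 CPM under APAP. Saa1 was at 124 and 165 CPM in control and 1689 and 501 CPM in SLIT2+APAP. Lcn2, which binds bacterial iron carriers, was at 14.5 and 27.5 CPM in control and 347 and 152 CPM in SLIT2+APAP (3.57 ± 0.79, adjusted p = 0.06). Orm2, an acid glycoprotein, was at 11.4 and 11.4 CPM in control and 460 and 168 CPM in SLIT2+APAP (4.78 ± 1.08, adjusted p = 0.0622). The SLIT2+APAP libraries lay above both control libraries for all 4 genes, yet their own 2 values lay far apart, and none of the 4 passed. Saa1 and Saa2, and the Orm genes, are near-identical copies, so their separate levels are uncertain. The fibrinogen chain Fga stood the other way, at 1723 and 1241 CPM in control and 786 and 472 CPM in SLIT2+APAP (-1.24 ± 0.38, adjusted p = 0.118). APAP libraries held 5893 and 5282 CPM of Fga, and SLIT2 libraries 146 and 89.2 CPM. With SLIT2 alone Lcn2 was at 9.02 and 2.01 CPM and Orm2 at 21.65 and 1.61 CPM.

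Genes that injury is known to induce within hours did not pass the test in SLIT2+APAP. None of the 18 immediate early transcription factors passed, with a median of 0.347. Egr1, a zinc finger factor of this class, was at 3.79 and 2.81 CPM in control, 2.39 and 7.57 CPM in SLIT2+APAP and 635 and 170 CPM under APAP. The control and SLIT2+APAP libraries overlapped, and SLIT2+APAP differed from control by 0.60 ± 0.66 (adjusted p = 0.667) and from APAP by -6.33 (adjusted p = 0.0064). Btg2, an antiproliferative p53 target, was at 4.88 and 3.95 CPM in control, 4.07 and 6.66 CPM in SLIT2+APAP and 116 and 105 CPM under APAP. Its log2 fold change against control was 0.28 ± 0.29 (adjusted p = 0.636). Of the 18 factors, 10 were lower in SLIT2+APAP than in APAP at an adjusted p under 0.05, beside 7.64% of all genes (1290). None of the 18 p53 targets and none of the 22 NRF2 targets differed from control by the test, at medians of 0.07 and 0.21. Asns, which makes asparagine and answers to the integrated stress response, fell from 22.6 and 13.3 CPM to 2.02 and 1.28 CPM (-3.45 ± 0.50, adjusted p = 0.029). Asns was at 8.89 and 5.22 CPM under APAP and 0.35 and 0.85 CPM with SLIT2. It was the 1 call among 19 members of that response, of which 12 had a positive log2 fold change, at a median of 0.22. Without overlap 9 of the 19 lay above control and 4 below (all genes: 35.2% and 32.3%).

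ER chaperones fold secreted proteins and are induced by the unfolded protein response through ATF6 and XBP1. In SLIT2+APAP 25 of 30 members lay below control and 24 were lower with no overlap (all genes: 32.3%), at a median of -0.55, and 1 fell by the test. That was Hspa5, the ER chaperone BiP, at 413 and 532 CPM in control, 137 and 162 CPM in SLIT2+APAP, 1159 and 1023 CPM under APAP and 59.5 and 48.2 CPM with SLIT2. Both groups given SLIT2 lay below control and APAP alone above it. Hspa5 fell to 0.316 of control (-1.66 ± 0.26, adjusted p = 0.0311); with library totals it was at -1.36 (adjusted p = 0.0625). Creld2, an ER disulfide isomerase, was at 22.4 and 36.5 CPM in control and 8.17 and 13.7 CPM in SLIT2+APAP (-1.43 ± 0.57, adjusted p = 0.209). Hsp90b1, the ER form of Hsp90, was at 764 and 1025 CPM in control and 431 and 586 CPM in SLIT2+APAP (-0.81 ± 0.33, adjusted p = 0.211). Hsph1, a cytosolic nucleotide exchange factor of Hsp70, fell from 21.7 and 29.1 CPM to 7 and 8.94 CPM (-1.67 ± 0.29, adjusted p = 0.0382), the 1 call among 14 heat shock chaperones.

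Promoter windows of the ER chaperones are shown because 9 of the 25 members with a RefSeq window (GRCm38.p6, from 250 bases before to 50 after the start) hold the ER stress element, CCAAT followed after 9 bases by CCACG on either strand, against 0.119% of 32851 windows. Capitals mark each match, read 5′ to 3′ on the gene's strand. A match is a description of letters, not a site of binding.
Hspa5, chr2:34771840-34772139, plus strand: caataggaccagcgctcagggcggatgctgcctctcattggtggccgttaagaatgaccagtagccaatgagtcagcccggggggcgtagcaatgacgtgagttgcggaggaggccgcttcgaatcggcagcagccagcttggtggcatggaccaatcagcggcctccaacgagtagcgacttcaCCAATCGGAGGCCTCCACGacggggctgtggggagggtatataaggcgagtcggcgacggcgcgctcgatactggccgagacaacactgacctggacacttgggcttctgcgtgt
Hsp90b1, chr10:86705395-86705694, minus strand: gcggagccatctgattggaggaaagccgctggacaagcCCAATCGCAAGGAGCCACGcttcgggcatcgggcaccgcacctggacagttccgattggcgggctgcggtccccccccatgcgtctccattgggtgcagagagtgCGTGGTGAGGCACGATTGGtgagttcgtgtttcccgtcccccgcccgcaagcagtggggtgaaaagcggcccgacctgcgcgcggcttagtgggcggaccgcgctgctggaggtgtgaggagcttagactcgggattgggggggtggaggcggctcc
Creld2, chr15:88819396-88819695, plus strand: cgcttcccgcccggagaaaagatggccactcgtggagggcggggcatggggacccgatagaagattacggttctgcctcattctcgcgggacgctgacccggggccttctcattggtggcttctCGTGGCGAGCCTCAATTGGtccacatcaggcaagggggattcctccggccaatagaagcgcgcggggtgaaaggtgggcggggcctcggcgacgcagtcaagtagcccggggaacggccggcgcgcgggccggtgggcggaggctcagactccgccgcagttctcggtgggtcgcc
The other 6 members with a match were Calr, Canx, Derl3, Dnajc3, Pdia6 and Syvn1. Of the 9, Hspa5, Hsp90b1, Creld2, Calr, Canx and Pdia6 lay below control with no overlap, from -0.41 to -1.66 on the log2 scale. Derl3, Dnajc3 and Syvn1 overlapped control, at -0.04, 0.02 and 0.24. In the whole list 24 of 30 were lower with no overlap, so holders of the match were not lower more often than the list. A link between the match and the direction was not tested.

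**Figure D3:**
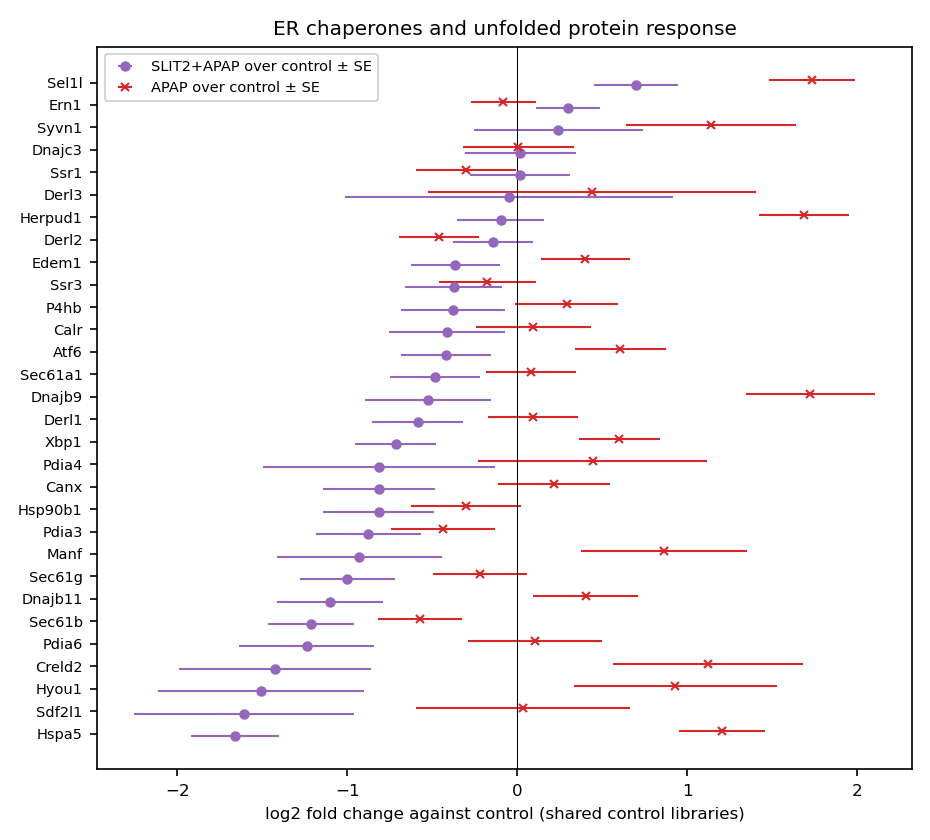
log2 fold changes over control with their standard errors for 30 ER chaperone and unfolded protein response genes, SLIT2+APAP as purple circles and APAP as red crosses, which share the control libraries. Purple circles lie left of 0 for 25 of 30 genes, with Hspa5 lowest at -1.66.

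Among the acute phase proteins, 8 of the 20 with a window hold the C/EBP-type letters TTGCNCAA (Fga, Fgb, Lcn2, Orm2, Orm3, Saa1, Saa2 and Saa4), against 2.94% of all windows. Windows of 3 of these are shown as examples of the members named above, with the matches in capitals.
Saa2, chr7:46751583-46751882, plus strand: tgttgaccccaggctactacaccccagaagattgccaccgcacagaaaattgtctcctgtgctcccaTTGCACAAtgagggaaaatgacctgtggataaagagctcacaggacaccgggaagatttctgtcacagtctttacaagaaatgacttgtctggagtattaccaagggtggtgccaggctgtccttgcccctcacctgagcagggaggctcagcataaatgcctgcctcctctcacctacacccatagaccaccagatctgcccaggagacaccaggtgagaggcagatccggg
Lcn2, chr2:32387690-32387989, minus strand: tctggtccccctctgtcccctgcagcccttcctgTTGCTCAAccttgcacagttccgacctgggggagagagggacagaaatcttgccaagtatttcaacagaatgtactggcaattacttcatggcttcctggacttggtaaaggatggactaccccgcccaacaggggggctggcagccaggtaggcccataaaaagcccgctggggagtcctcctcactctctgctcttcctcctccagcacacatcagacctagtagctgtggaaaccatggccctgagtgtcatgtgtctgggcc
Orm2, chr4:63362199-63362498, plus strand: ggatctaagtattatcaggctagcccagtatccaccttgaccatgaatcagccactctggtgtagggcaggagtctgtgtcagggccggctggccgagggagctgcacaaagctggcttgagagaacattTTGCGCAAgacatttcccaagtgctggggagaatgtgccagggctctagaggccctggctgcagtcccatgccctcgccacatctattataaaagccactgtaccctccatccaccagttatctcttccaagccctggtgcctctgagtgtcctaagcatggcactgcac
Fga, which was lower than control, holds the same letters, so they did not separate the members by direction. The motifs were chosen after the expression values were seen. Also searched on both strands were the ER stress element II (ATTGG, 1 base, CCACG, which shares CCACG with the first), TGACNNNGC, TTCNNNGAA, an HNF1-type motif (GTTAAT, 1 base, ATTAA), the heat shock element (GAA, TTC and GAA, each 2 bases apart), TGACGTCA and TGATGNAAN. In this order they were held by 0.0365%, 12.4%, 8.3%, 0.0609%, 0.603%, 1.79% and 3.95% of windows. In the same order 2, 6, 1, 0, 0, 0 and 1 of 25 ER members held them. Of 20 acute phase members, 0, 2, 6, 0, 0, 0 and 0 did.

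Nuclear genes of mitochondrial energy metabolism were lower in SLIT2+APAP: the summed level of the respiratory chain list was 15600 and 15100 CPM in control, 13900 and 12100 CPM under APAP and 10600 and 9440 CPM in SLIT2+APAP. Of 82 nuclear-encoded subunits of the respiratory chain and ATP synthase, 15 fell and none rose (all genes: 1.45% and 0.717%). A negative log2 fold change was found for 71 (all genes: 52.54% positive), and the median was -0.56. The number called was 4 with library totals, 1 without the first control library and 0 without the SLIT2 libraries. Cox5a, a subunit of cytochrome c oxidase, stood at 167 and 140 CPM in control and 41.8 and 33.7 CPM in SLIT2+APAP. APAP libraries held 175 and 152 CPM and SLIT2 libraries 7.21 and 4.89 CPM, so SLIT2+APAP lay between control and SLIT2. Cox5a fell by 2.02 ± 0.26 on the log2 scale (adjusted p = 0.0253). Atp5b, the catalytic subunit of ATP synthase, fell from 666 and 562 CPM to 194 and 146 CPM (-1.85 ± 0.25, adjusted p = 0.0253). Ndufv1 of complex I fell from 134 and 116 CPM to 46.8 and 40.5 CPM (-1.52 ± 0.22, adjusted p = 0.029). Cox8b and Cox6a2, also among the 15, are muscle forms of their subunits. Cox8b was at 18.2 and 2.33 CPM in control and 0.05 and 0.03 CPM in SLIT2+APAP, and Cox6a2 at 22.3 and 2.08 CPM and then 0.1 and 0.18 CPM, like the muscle markers described further on.

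The 13 mitochondrially encoded proteins lay the other way: all 13 were above control with no overlap (all genes: 35.2%). The list median was 0.48, and none passed. mt-Nd4, a complex I subunit, was at 9175 and 10910 CPM in control and 16450 and 16130 CPM in SLIT2+APAP (0.70 ± 0.34, adjusted p = 0.297), with 40070 and 51380 CPM under SLIT2 alone. Leaving these genes out gave 355 calls. Of 78 mitochondrial ribosomal proteins, 7 fell and none rose, at a median of -0.54 (all genes: 1.45% fell and 0.717% rose). They were led by Mrpl46, from 20.8 and 17.9 CPM to 6.03 and 5.08 CPM (-1.80 ± 0.27, adjusted p = 0.0305). Of 72 cytosolic ribosomal proteins 2 fell, Rpl3 and Rpl4, and none rose, with a median of -0.05 that turned to 0.25 with library totals.

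Enzymes of the tricarboxylic acid cycle and pyruvate entry were a list chosen after the data were seen. Of these 16, 5 were lower and none higher, at a median of -0.88 (all genes: 1.45% lower and 0.717% higher). Mpc1 is among the 5, and part of its fall stands beside more counts in its pseudogene copy, given further on. Suclg1, a succinyl-CoA ligase subunit, fell from 137 and 119 CPM to 41.3 and 30.3 CPM (-1.84 ± 0.26, adjusted p = 0.0283). The malate dehydrogenases Mdh1 and Mdh2 fell by 1.48 ± 0.24 (adjusted p = 0.0323) and by 1.49 ± 0.23 (adjusted p = 0.0311). Fatty acid oxidation and ketogenesis had 4 of 23 lower and none higher (median -0.82), beside the same shares of all genes. Acads, the short-chain acyl-CoA dehydrogenase, fell from 90.3 and 82.2 CPM to 27.9 and 22.6 CPM (-1.77 ± 0.26, adjusted p = 0.0299). Ehhadh, the peroxisomal bifunctional enzyme, fell from 135 and 166 CPM to 38 and 34.5 CPM (-2.05 ± 0.35, adjusted p = 0.035). APAP libraries held 87.2 and 182 CPM of Ehhadh and 71.1 and 111 CPM of Acads, overlapping control. SLIT2 libraries held 11.7 and 9.8 CPM of Ehhadh and 11.3 and 10.3 CPM of Acads.

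Genes of protein folding and turnover complexes also fell in part, where 1.45% of all genes tested fell and 0.717% rose. All 8 subunits of the CCT chaperonin, which folds actin and tubulin, were below control, and 4 fell (median -1.13; a list chosen after the data were seen). Cct4 was at 67.8 and 65.1 CPM in control and 24.3 and 20.8 CPM in SLIT2+APAP (-1.56 ± 0.19, adjusted p = 0.0245), beside 53.9 and 48.6 CPM with APAP and 9.24 and 9.16 CPM with SLIT2. Of 38 proteasome subunits 3 fell and none rose (median -0.59), with Psmd13 of the regulatory lid going from 56.3 and 38.9 CPM to 6.2 and 6.92 CPM (-2.86 ± 0.32, adjusted p = 0.0221). The COP9 signalosome, which removes NEDD8 from cullin ligases, had 3 of 9 lower, also chosen after the data were seen, with Cops6 falling from 98.7 and 91.8 CPM to 21.4 and 17.3 CPM (-2.30 ± 0.22, adjusted p = 0.0219). In each of these lists the SLIT2 libraries were lower still, with medians against control of -2.45 (CCT), -2.06 (proteasome) and -1.53 (COP9). APAP medians were 0.06, -0.02 and -0.26.

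**Figure D4:**
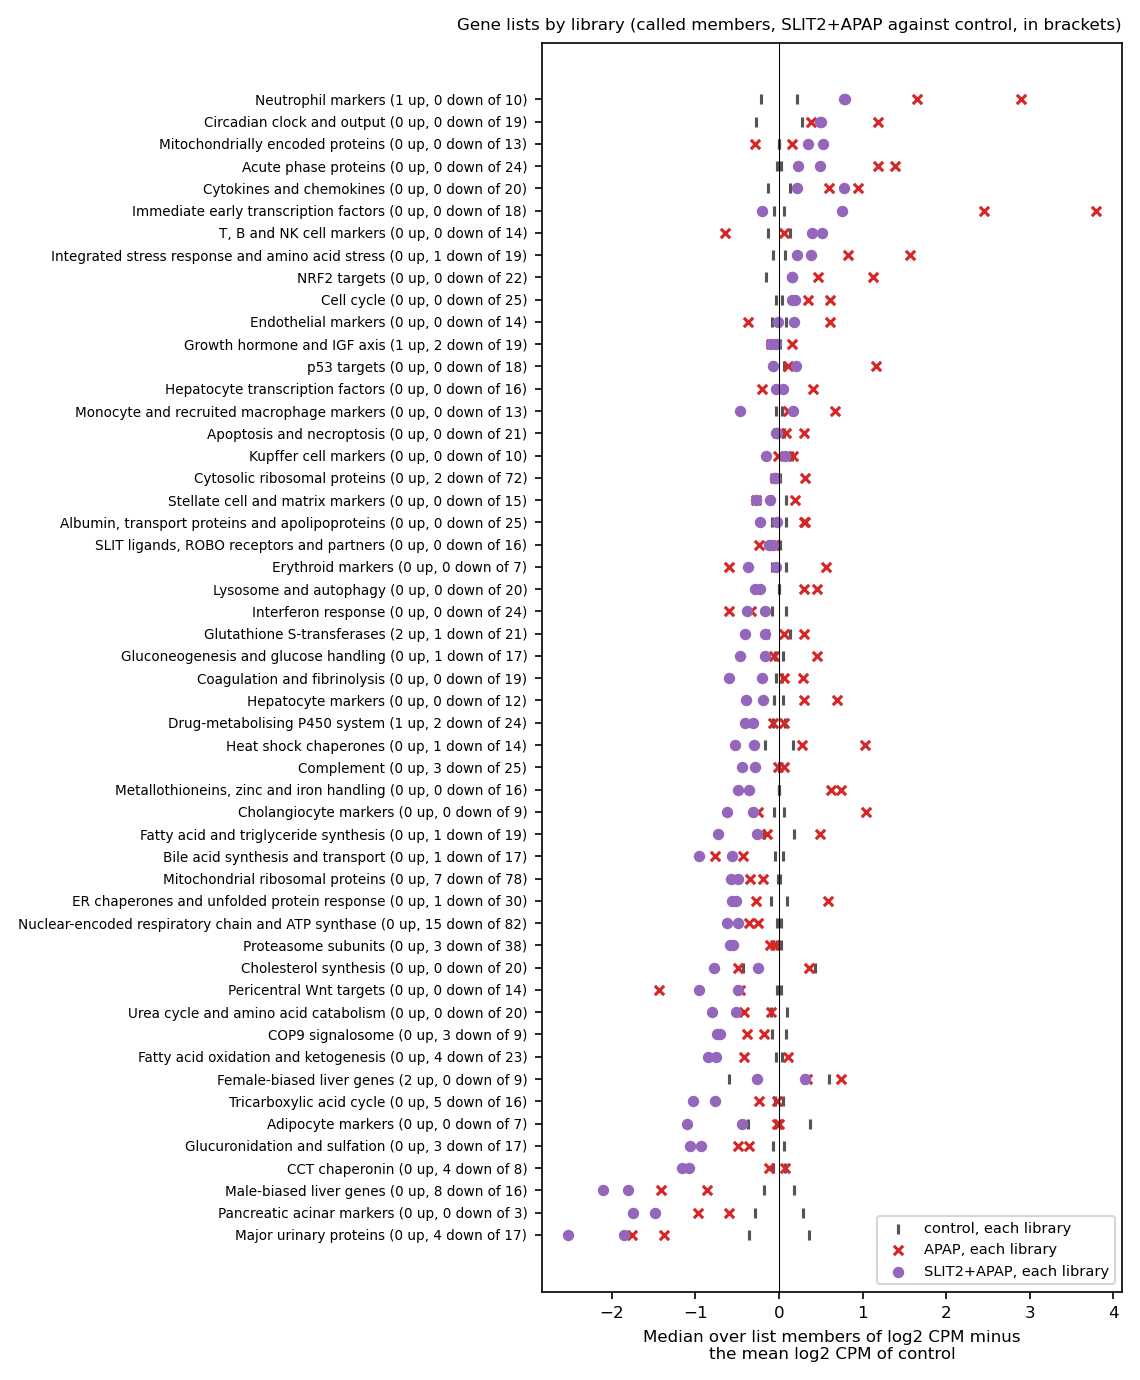
Median over list members of the log2 CPM difference from the mean of control, per library, for every gene list but skeletal muscle (control as grey bars, APAP as red crosses, SLIT2+APAP as purple circles), with the called members in brackets. Purple circles lie below both control libraries for CCT, the tricarboxylic acid cycle, fatty acid oxidation, proteasome, respiratory chain and urinary protein lists, and above them for the mitochondrially encoded list.

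Among the metabolic enzymes of hepatocytes, Fbp1, a control enzyme of gluconeogenesis, fell from 566 and 530 CPM to 119 and 73.1 CPM (-2.51 ± 0.29, adjusted p = 0.0221). APAP libraries held 440 and 524 CPM and SLIT2 libraries 47 and 49.2 CPM. It was the 1 call among 17 gluconeogenic genes, and SLIT2+APAP overlapped neither control nor APAP. Of 20 urea cycle and amino acid genes 19 were below control, none past the test (median -0.70), with Cps1 at 1645 and 1389 CPM in control and 672 and 448 CPM in SLIT2+APAP (-1.44 ± 0.32, adjusted p = 0.0598). Of 14 pericentral Wnt targets 13 were below control and none passed (median -0.69). Oat was at 910 and 823 CPM in control and 299 and 153 CPM in SLIT2+APAP (-1.94 ± 0.55, adjusted p = 0.102). APAP libraries held 257 and 100 CPM of Oat, and SLIT2 libraries 76 and 35 CPM. Fads2, a desaturase of polyunsaturated fatty acids, fell from 45.5 and 40.1 CPM to 12.9 and 9.65 CPM (-1.92 ± 0.32, adjusted p = 0.035), the 1 call among 19 lipid synthesis genes.

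Enzymes that handle APAP itself had calls in both directions, while most members of their lists lay below control. Negative were 18 of 24 P450 system genes, 14 of 17 glucuronidation and sulfation genes and 15 of 21 glutathione S-transferases (all genes: 52.54% positive). With library totals the medians of these 3 lists were -0.06, -0.75 and -0.0039. Cyp2e1, the main P450 to activate APAP, was at 2862 and 3002 CPM in control and 1991 and 1093 CPM in SLIT2+APAP (-0.93 ± 0.37, adjusted p = 0.21). Cyp2e1 was at 4400 and 4138 CPM under APAP and 487 and 303 CPM with SLIT2. Of 24 genes of the P450 system, Cyp2f2 and Cyp2c70 fell, by 1.66 ± 0.22 (adjusted p = 0.0253) and by 1.44 ± 0.23 (adjusted p = 0.0323), and Cyp2a4 rose. Glucuronidation and sulfation genes had 3 of 17 lower and none higher, at a median of -1.06 (all genes: 1.45% lower and 0.717% higher). Ugt2b1 fell from 560 and 448 CPM to 104 and 73.5 CPM (-2.50 ± 0.39, adjusted p = 0.0311), beside 197 and 110 CPM with APAP. Ugt1a6a, of the isoform group known to conjugate APAP, fell from 28.4 and 36.9 CPM to 13.1 and 8.96 CPM (-1.57 ± 0.26, adjusted p = 0.0341). Its neighbour Ugt1a10 was at 8.5 and 6.26 CPM in control, had 0 counts in SLIT2+APAP and SLIT2, and was at least 433-fold lower by a floor of 3 counts over the group. Ugt1a genes share their last exons, so how reads were split between them is uncertain. Among 21 glutathione S-transferases Gsta1 and Mgst3 rose and Gstk1, the mitochondrial and peroxisomal form, fell by 1.22 ± 0.22 (adjusted p = 0.0382).

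For Mgst3, Prpf19 and Cyp2a4, among others, SLIT2+APAP lay outside the range of all other libraries. Selenbp2 and C6, given further on, did so too, and the share of all genes that did was not counted. Mgst3, a microsomal glutathione transferase and peroxidase, was at 45.1 and 44.6 CPM, above 16.3 and 19 CPM in control, 17.4 and 17.7 CPM under APAP and 9.92 and 6.26 CPM with SLIT2. It rose against control by 1.35 ± 0.25 (adjusted p = 0.0426) and differed from APAP by 1.35 (adjusted p = 0.016). Prpf19, a ubiquitin ligase of the spliceosome, was at 3.5 and 3.16 CPM, below 19.1 and 18.7 CPM in control, 33 and 50.3 CPM under APAP and 15.9 and 17.6 CPM with SLIT2 (-2.50 ± 0.25, adjusted p = 0.0219). Cyp2a4, a steroid hydroxylase, was at 9.1 and 62.1 CPM, against 0.21 and 0.53 CPM in control, 0.97 and 5.11 CPM under APAP and 1.08 and 0.71 CPM with SLIT2. It rose by 6.57 ± 1.20 (adjusted p = 0.0406), although its own 2 libraries lay far apart. Its near-copy Cyp2a5 was at 175 and 398 CPM in control and 724 and 900 CPM in SLIT2+APAP (adjusted p = 0.0809), so reads split between the pair leave both levels uncertain. A test against SLIT2 alone was not run.

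Major urinary proteins are pheromone carriers that male mouse liver makes under pulsed growth hormone. All 17 tested lay below control with no overlap (all genes: 32.3%), and 4 fell (all genes: 1.45%). The list median was -2.26, beside -1.72 with APAP and -4.03 with SLIT2. Their summed level was 237000 and 154000 CPM in control and 61600 and 37300 CPM in SLIT2+APAP. Mup7 was at 50210 and 36480 CPM in control and 10260 and 5688 CPM in SLIT2+APAP (-2.44 ± 0.46, adjusted p = 0.0429), and counts within this near-identical family are uncertain. Of 16 genes known to be higher in male than in female liver, 8 fell (all genes: 1.45%). All 16 lay below control (median -1.96), and this list was chosen after the data were seen. Selenbp2, of the selenium-binding proteins, fell from 562 and 298 CPM to 27.8 and 33.8 CPM (-3.80 ± 0.42, adjusted p = 0.0221), with 87 and 64.7 CPM under APAP and 483 and 284 CPM with SLIT2. Here SLIT2 alone overlapped control. C6, the complement protein, fell from 163 and 131 CPM to 41.3 and 43 CPM (-1.80 ± 0.25, adjusted p = 0.0262). Of 15 female-biased genes listed 9 were tested, at a median of -0.84 with 5 negative and 4 positive. Without overlap 4 lay above control and 3 below (all genes: 35.2% and 32.3%), so that list had no clear direction. Its 2 calls rose, Cyp2a4 and the repressor Cux2, the latter from 0.31 and 0.52 CPM to 1.61 and 1.53 CPM (1.92 ± 0.36, adjusted p = 0.0431). Cux2 was higher still with APAP alone, at 4.76 and 3.62 CPM, and with SLIT2 alone, at 2.73 and 2.99 CPM.

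Serpina12, the adipokine and protease inhibitor vaspin, was among the 6 smallest p, falling from 59.9 and 47.3 CPM to 7.57 and 9.86 CPM (-2.62 ± 0.26, adjusted p = 0.0219). Igfbp2, a carrier of insulin-like growth factors, fell from 386 and 322 CPM to 87.1 and 82.8 CPM (-2.06 ± 0.41, adjusted p = 0.0484). Igfbp2 was at 328 and 675 CPM under APAP and 32.5 and 18 CPM with SLIT2. In the complement list, Cfd, C6 and C8b fell out of 25 (all genes: 1.45%). Cfd, which is known as an adipocyte product, was at 2.77 and 1.44 CPM in control and 0.04 and 0.04 CPM in SLIT2+APAP (-5.68 ± 0.56, adjusted p = 0.0071). It was at 0.01 and 0.03 CPM under APAP and 0.04 and 0.04 CPM with SLIT2, so only the control libraries stood apart. Adipoq, another adipocyte gene, was at 0.56 and 0.33 CPM in control and 0 and 0.03 CPM in SLIT2+APAP (adjusted p = 0.0638). Of the 7 adipocyte markers tested none passed, 4 were negative and 3 positive, at a median of -0.979. Their summed level overlapped, at 24.3 and 13.5 CPM in control and 14.1 and 17.3 CPM in SLIT2+APAP.

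Genes were ranked by size of change where the groups did not overlap, leaving out pseudogenes, predicted genes and those under 5 CPM in both groups. Of the 10 largest falls by this naming rule, 9 were skeletal muscle genes, which belong to a tissue other than liver, and the other was Ugt1a10. Of 19 muscle markers 17 fell (all genes: 1.45%), and the median of the 19 was -8.74. Ckm, muscle creatine kinase, was at 180 and 18.7 CPM in control, 0.06 and 0.2 CPM in SLIT2+APAP, 0.11 and 0.01 CPM under APAP and 0.01 and 0.02 CPM with SLIT2. The summed level of the 19 was 1460 and 170 CPM in control and 15.6 and 13.7 CPM in SLIT2+APAP, so the control libraries stood apart from the rest and from each other, with the first far higher. Acta1, Tnnc2, Tnni2, Tnnt3, Atp2a1, Pvalb, Ckmt2 and Myh2, genes of the contractile filament, calcium handling and energy buffering, are the others beside Ckm. The part of muscle tissue in the control libraries in other results was not tested. Without the first control library the whole comparison made 19 calls, 10 of them muscle markers.

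By the same naming rule the 10 largest rises were Gsta1, Cyp2a4 and 8 genes at low levels in control. Some genes outside the rule rose by more, such as the pseudogenes described further on. Zfp457, a zinc finger gene, was at 1.8 and 1.55 CPM in control, 5.75 and 7.29 CPM in SLIT2+APAP, 0.95 and 0.93 CPM under APAP and 67.5 and 61.9 CPM with SLIT2 (1.96 ± 0.22, adjusted p = 0.0221). Hoxd11, a homeobox gene of the posterior body and limb, was at 1.99 and 1.55 CPM in control, 5.87 and 9.48 CPM in SLIT2+APAP and 33 and 36.4 CPM with SLIT2 (2.12 ± 0.30, adjusted p = 0.0283). Usp17la, a deubiquitinase, went from 1.3 and 1.41 CPM to 4.56 and 6.77 CPM (2.06 ± 0.26, adjusted p = 0.0253), and Ankrd12 from 9.32 and 12 CPM to 34.1 and 43.2 CPM (1.86 ± 0.26, adjusted p = 0.0283). Sardhos, Ccdc24, Adam11 and H2-Q2 complete the 8. In Zfp457, Hoxd11, Usp17la, Ankrd12, Sardhos and Ccdc24 the order was APAP or control lowest, then SLIT2+APAP, then SLIT2. Adam11 was also at 8.37 and 3.89 CPM under APAP, against 1.23 and 1.2 CPM in control. H2-Q2 was highest in SLIT2+APAP (3.59 and 7.37 CPM against 0.43 and 0.24 CPM in control), and its level is uncertain beside its near-copy H2-Q1. Of the 121 genes that rose, 18 (14.9%) are pseudogenes, against 4.39% of all genes tested and 3.28% of those that fell.

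For some genes the split of counts between the gene and a near-copy differed between libraries with and without SLIT2. These pairs were chosen after the values were seen. Atp6v0c-ps2 (ENSMUSG00000080242, GRCm38 chr6:37806086-37806550), a processed pseudogene of a proton pump subunit, had the smallest p of all genes. It was at 0.66 and 0.83 CPM in control and 84 and 115 CPM in SLIT2+APAP (7.06 ± 0.36, adjusted p = 0.00092), while its parent Atp6v0c fell from 161 and 170 CPM to 54 and 27.3 CPM (-2.02 ± 0.36, adjusted p = 0.0382). The sum of both was 161 and 171 CPM in control and 138 and 142 CPM in SLIT2+APAP. The copy held 0.406% and 0.487% of that sum in control, 0.0942% and 0.152% with APAP, 60.9% and 80.8% in SLIT2+APAP and 82.2% and 75% with SLIT2. Mpc1, the mitochondrial pyruvate carrier, fell from 206 and 153 CPM to 40.8 and 34.1 CPM (-2.26 ± 0.26, adjusted p = 0.0221), while Mpc1-ps was at 27 and 38.9 CPM in control and 104 and 97.2 CPM in SLIT2+APAP. Their sum went from 233 and 191 CPM to 145 and 131 CPM, a log2 ratio of -0.62 in place of -2.26 for Mpc1 alone.

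Rpl10a-ps1 went the other way, from 79.2 and 74.9 CPM in control to 0.29 and 0 CPM in SLIT2+APAP (-9.14 ± 0.96, adjusted p = 0.0235), while Rpl10a was at 146 and 139 CPM and then 165 and 178 CPM. SLIT2 libraries had 0 counts of this copy and APAP libraries 113 and 95.6 CPM. Gm11808 and Gm13835 had 0 counts in SLIT2+APAP and were at least 5700-fold and 731-fold lower than control by the floor of 3 counts over the group. Gm10175 had 0 counts in control and APAP and was at least 1110-fold higher in SLIT2+APAP. Atp6v0c-ps2, Gm11808 and Gm13835 were the 3 genes still called without the SLIT2 libraries. How reads that fit several places were counted is not given in the sources used here, so levels of these genes are uncertain. Whether libraries with and without SLIT2 were processed alike is not stated, so a difference in processing and one of treatment cannot be told apart, here or in the changes that SLIT2+APAP shared with SLIT2 alone.

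**Figure D5:**
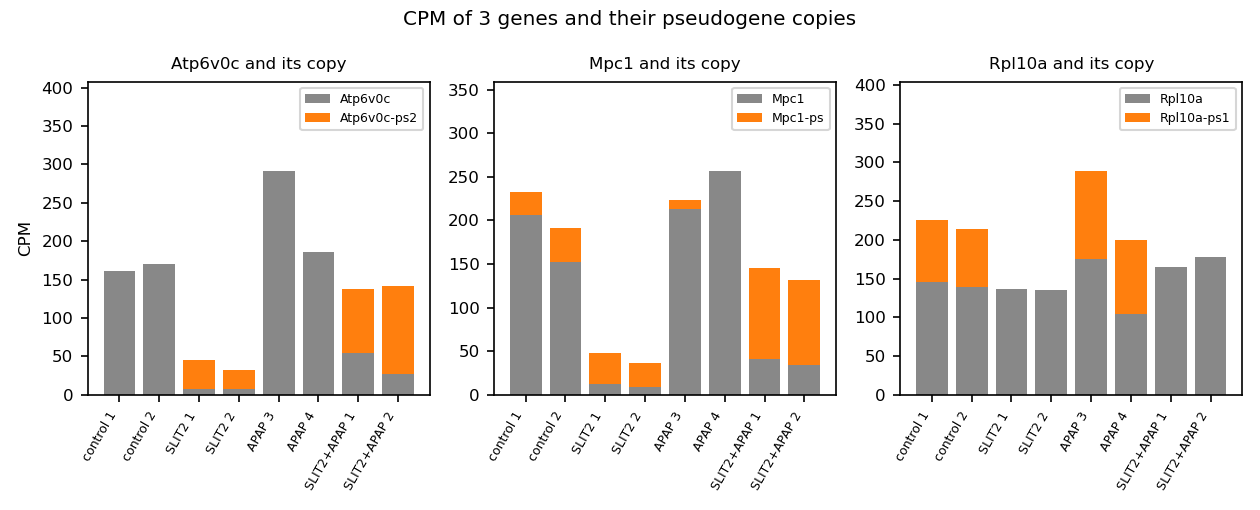
Stacked CPM of Atp6v0c, Mpc1 and Rpl10a (grey) and their pseudogene copies (orange) in the 8 libraries. The orange part is large in the 4 libraries given SLIT2 for Atp6v0c-ps2 and Mpc1-ps, and at or near 0 in those libraries for Rpl10a-ps1.

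Of the markers of other liver cells 1 rose. None of the Kupffer cell (10 tested), monocyte (13), endothelial (14), stellate (15), cholangiocyte (9) or lymphocyte (14) markers passed. Among 10 neutrophil markers Cxcr2, a chemokine receptor, rose from 1.62 and 1.66 CPM to 4.58 and 4.84 CPM (1.52 ± 0.24, adjusted p = 0.0323), with 26.8 and 26.3 CPM under SLIT2. The granule genes S100a8 and S100a9 were at 0.57 and 0.98 CPM and 0.69 and 0.75 CPM in control, and at 0.8 and 1 CPM and 0.88 and 1.26 CPM in SLIT2+APAP. The summed neutrophil level was 3.67 and 4.88 CPM in control and 8.34 and 9.96 CPM in SLIT2+APAP. Cxcr2 alone made up 1.62 and 1.66 CPM of the control sums and 4.58 and 4.84 CPM of the SLIT2+APAP sums. Of the 10 neutrophil markers, 9 had a positive log2 fold change (all genes: 52.54%). Without overlap 6 were higher and 0 lower (all genes: 35.2% and 32.3%). None of the 12 hepatocyte markers passed, and Alb, serum albumin, was at 30270 and 48450 CPM in control and 47000 and 47750 CPM in SLIT2+APAP. The defining transcript of the labelled tissue was thus abundant in both groups.

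None of 16 SLIT and ROBO pathway genes passed. Slit2 itself was at 0.12 and 0.09 CPM in control and 0.16 and 0.11 CPM in SLIT2+APAP, beside 1.28 and 1.47 CPM with SLIT2 alone. The protein was injected, so its transcript does not check the treatment. Robo1 was at 2.49 and 2.54 CPM in control, 2.28 and 2.71 CPM in SLIT2+APAP and 0.75 and 0.91 CPM under APAP, a log2 fold change against control of -0.01 ± 0.28 (adjusted p = 0.991). Robo4, the endothelial receptor, was at 1.92 and 2.74 CPM in control and 3.67 and 4.15 CPM in SLIT2+APAP (0.74 ± 0.69, adjusted p = 0.604).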

How the data were processed

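RNA-seq of mouse liver (directional kit, total RNA, per the labels' protocols) was used as counts per gene in 8 libraries. The deposited table holds whole-number counts for 23006 Ensembl identifiers, 1 column per library, and 22341 (97.1%) matched GENCODE M21 on GRCm38. STAR 2.5.4, mm10, Cufflinks and Cuffdiff 2.2.1 stand in the submitters' processing notes. How genes were counted, with which strand setting, and how multiply mapping reads were treated is not given here in any source used. Of 93 values from 1000000 up, 72 end in 0, so large counts appear rounded. Reads are not independent molecules, and floors cover counting error only.

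Groups were compared by edgeR 4.0.16 under R 4.3.3: filterByExpr (16876 genes), TMM, a robust quasi-likelihood fit (legacy = FALSE) of all 8 libraries with 1 mean per group, 4 residual degrees of freedom, and Benjamini-Hochberg adjusted p under 0.05. SE is the log2 fold change over the root of F. An exact permutation of 2 against 2 libraries cannot go below p = 0.333, so none was used. On simulated data for this comparison (16503 genes, 200 changed) edgeR found 69% of 4-fold and 4% of 2-fold changes, with 10 false among 83 calls. DESeq2 1.42.0 on 16876 genes found 97% and 29%, with 52 false among 178.

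The members, the 48 gene lists and the rule for named genes were chosen with earlier results of these data known, and 5 further lists after seeing them. Named were the 10 largest rises and 10 largest falls (called, at least 5 CPM, no overlap, informative symbol), the 6 smallest p, up to 4 called members per list or 2 otherwise, and Slit2, Robo1, Robo2, Robo4, Cyp2e1, Egr1, Btg2, Hspa5, Gsta1 and Fga; other genes, such as Saa1, Saa2, Hsp90b1, Creld2, S100a8, S100a9, Gsta2, Cyp2a5 and Alb, were added after their values were seen. Alternatives were other scalings, filters, DESeq2, the legacy fit, a fold of at least 2, fewer libraries, GC offsets, protein-coding genes, a replicate block and each library left out. Figures used matplotlib 3.10.9.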

Additional observations from a re-analysis of the deposited data

How the results depend on the processing

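The counts of called genes moved with the setting. The 84 named genes called kept their sign in every alternative that tested them (71 of them with at least 10 CPM in 2 libraries, 82 among protein-coding genes). Their groups did not overlap, so the alternatives could hardly have turned a sign, and the kept signs are a description only. The number called stayed within 1.5 times of 365 with DESeq2 size factors (401), no filter (359), the legacy fit (296), no mitochondrially encoded genes (355), protein-coding genes (293), GC offsets (352), library totals (390, 267 higher and 123 lower) and at least 10 CPM in 2 libraries (509, 211 higher). DESeq2 called 1454 (550 higher, 904 lower), the 4 libraries alone 4246 (1973 and 2273), a fit without the SLIT2 libraries 3 (1 and 2), and a fold of at least 2 7 (1 and 6). Leaving out 1 library gave from 2 to 2558 calls, from 1 to 1201 higher and from 1 to 1357 lower; a group left with 1 library was assumed to vary like the others. The cause of these differences was not tested.

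Deviations of the libraries numbered 1 from their group means had r = -0.0706 over 16876 genes between control and SLIT2+APAP. With 2 libraries a group, this cannot settle whether the numbers pair the groups. A replicate block gave 2494 calls (1109 higher, 1385 lower) over control, SLIT2 and SLIT2+APAP, against 2582 (1186 and 1396) in the same libraries without the block, a fit added after seeing the data. Over control and SLIT2+APAP alone the block gave 3556 (1560 and 1996). With library totals the medians of 10 lists changed sign, among them cytosolic ribosomal, Kupffer cell, interferon and lysosome genes. The 4 libraries compared held 73.73 to 100.5 M counts; depth as a limit was not tested.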

Other observations

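None of the members of the following lists passed the test; over all genes, 52.54% had a positive log2 fold change. Of 20 cytokines and chemokines tested, 19 had a positive log2 fold change, at a median of 0.39. Il18 was at 0.07 and 0.23 CPM in control, 0.7 and 0.96 CPM in SLIT2+APAP and 4.87 and 4.33 CPM with SLIT2 (2.42 ± 0.57, adjusted p = 0.0692 in edgeR). Clock and clock-output genes had 13 of 19 positive at a median of 0.49. Cell cycle genes had 15 of 25 positive at a median of 0.15, with 12 above and 7 below control without overlap (all genes: 35.2% and 32.3%). Birc5, an inhibitor of apoptosis needed for chromosome segregation, was at 3.56 and 3.56 CPM in control, 7.7 and 6.05 CPM in SLIT2+APAP and 31.3 and 33 CPM with SLIT2 (0.95 ± 0.24, adjusted p = 0.0758).

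Cholesterol synthesis genes had 15 of 20 negative at a median of -0.62, with Hsd17b7 at 33.6 and 39.6 CPM in control and 18.5 and 11.5 CPM in SLIT2+APAP (-1.29 ± 0.28, adjusted p = 0.0598). Interferon response genes had 13 of 24 negative at a median of -0.28, which turned to 0.024 with library totals. Without overlap 12 lay below control and 6 above (all genes: 32.3% and 35.2%). Among the 11 positive members, Gbp7, an interferon-induced GTPase, was at 13.2 and 16.4 CPM in control, 23 and 24.1 CPM in SLIT2+APAP and 7.52 and 10.3 CPM under APAP (0.67 ± 0.24, adjusted p = 0.174).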
